A study of Homo sapiens with 65 samples.

Results

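Members of the NODAL branch of TGF-beta signalling were followed through the first week of human heart organoid culture: the ligands NODAL and GDF3, the antagonists LEFTY1, LEFTY2 and CER1, the co-receptors TDGF1 and CFC1, and the transcription factor FOXH1. These 8 genes, of 58735 in the count table, were named with earlier results of the same libraries known. They were chosen by their CPM across the groups (CPM is a gene's count scaled to its library total), CER1 and TDGF1 also for having differed in the knockout. The knockout against wild type at days 2.5 and 4.5, and the course in wild type, are therefore described without a test of the members. For CER1 and TDGF1 the same holds for the knockout at the other days and for their course in the knockout. Some knockout steps of NODAL, LEFTY2 and CFC1 are descriptions too, as the low side of the step alone would not pass the filter on low counts. The groups whose CPM chose the members include the other knockout days and the enzyme groups. The remaining tests of members therefore use values that also chose them. Their p-values are given as the fit returned them, and a call of a member is not independent of that choice. The organoids are left ventricular cardioids, aggregates of cardiac progenitors and later cardiomyocytes grown from WTC-11, an established human induced pluripotent stem cell line, and each of the 65 libraries pooled 8 cardioids.

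There are 16 groups in all. A genotype arm of 41 libraries sets cells of WT genotype beside cells labelled HAS2-KO, for the hyaluronan synthase HAS2. It counts 5 WT and 6 HAS2-KO libraries on day 1.5, then 6 of each on day 2.5, again 6 of each on day 4.5, and finally 3 of each on day 7.5. The WT libraries come from 4 lines, which the labels name WT, WT_TU, cl43_WT_UT and TNT2, and only WT and WT_TU are present at day 7.5. The HAS2-KO libraries come from 4 clones (cl4, cl14, cl46 and cl51), with cl4 sampled repeatedly and only cl4 and cl14 present at day 7.5. The enzyme arm holds 24 libraries of WT genotype, left untreated or given hyaluronidase, which cleaves hyaluronan. Treatment began either on day 1.5, named HAse1.5 here, or a day later on day 2.5, named HAse2.5, with 3 libraries per group. Its replicates are the lines TNNI1, WT and TNNT2, 1 library of each in every group. HAse2.5 was sampled at days 4.5 and 7.5, and the other enzyme groups at days 2.5, 4.5 and 7.5. All groups shared a mesoderm induction medium until day 1.5 that contained Activin A, BMP4, FGF2, CHIR99021 and LY294002, and were then dissociated and reseeded in media without Activin A.

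NODAL is a secreted ligand that signals through activin receptors to SMAD2 and SMAD3, and it needs an EGF-CFC co-receptor, TDGF1 (also called Cripto) or CFC1 (Cryptic), on the receiving cell. FOXH1 carries the activated SMADs to target genes, among them NODAL itself and the secreted antagonists LEFTY1 and LEFTY2, so that the pathway feeds both itself and its own inhibition. In the embryo it induces mesendoderm during gastrulation and later marks the left side of the lateral plate that contributes to the heart. Activin uses the same receptors and SMADs without needing the co-receptor.

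On GRCh38 with GENCODE 29 annotation, NODAL (ENSG00000156574) lies on chromosome 10 at 70432315-70447951, minus strand, and GDF3 (ENSG00000184344) on chromosome 12 at 7689782-7695776, minus strand. LEFTY1 (ENSG00000243709) and LEFTY2 (ENSG00000143768) are neighbours on the minus strand of chromosome 1, at 225886282-225911382 and 225936598-225941489. CER1 (ENSG00000147869) lies on chromosome 9 at 14719724-14722717, minus strand, and TDGF1 (ENSG00000241186) on chromosome 3 at 46574534-46582463, plus strand. CFC1 (ENSG00000136698) lies on chromosome 2 at 130592168-130599575, minus strand. LEFTY1, LEFTY2 and TDGF1 each overlap a second annotated gene on their own strand. The strand setting of the counting is not given in the sources used here, so reads of overlapping genes could not be separated.

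The 250 bases before the RefSeq start site (GRCh38.p14) are shown, 5′ to 3′ along the gene's strand, for 1 ligand, 1 antagonist and 1 co-receptor whose levels differed widely between days: the ligand NODAL (chr10:70441682-70441931), the antagonist CER1 (chr9:14722734-14722983) and the co-receptor CFC1 (chr2:130599576-130599825). Capitals mark a FOXH1 consensus (AATACACA or AATCCACA) or a SMAD box (CAGAC), searched on both strands together with the T-box site TCACACC.
NODAL: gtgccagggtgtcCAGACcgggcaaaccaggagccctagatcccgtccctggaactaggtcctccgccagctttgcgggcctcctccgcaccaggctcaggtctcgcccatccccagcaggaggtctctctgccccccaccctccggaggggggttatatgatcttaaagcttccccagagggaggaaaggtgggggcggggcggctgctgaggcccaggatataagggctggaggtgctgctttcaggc
CER1: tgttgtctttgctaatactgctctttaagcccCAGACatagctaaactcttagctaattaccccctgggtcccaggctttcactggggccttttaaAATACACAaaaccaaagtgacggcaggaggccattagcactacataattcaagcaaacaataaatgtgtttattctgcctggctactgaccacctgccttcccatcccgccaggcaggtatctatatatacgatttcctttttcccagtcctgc
CFC1: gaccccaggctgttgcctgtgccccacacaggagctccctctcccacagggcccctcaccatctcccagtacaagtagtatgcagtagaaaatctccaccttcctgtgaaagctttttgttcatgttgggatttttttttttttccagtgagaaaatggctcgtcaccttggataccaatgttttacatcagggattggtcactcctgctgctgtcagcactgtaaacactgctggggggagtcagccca
The CER1 window held 1 FOXH1 consensus, AATACACA, 154 bases before the start, and 1 SMAD box 218 bases before it. The NODAL window held 1 SMAD box 237 bases before the start, and the CFC1 window held none of the motifs. Among the members, only NODAL, CER1, CFC1 and GDF3 had an entry in the promoter reference used. The GDF3 window, not shown, held none of the motifs. Over 35116 RefSeq promoters of the same length, 1.37% held the FOXH1 consensus, 38% the SMAD box and 2.76% the T-box site.

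Depth was modest. Totals ran from 831062 to 3574843 counts per library, with a median of 1570954, so that a level of 1 CPM rests on only a few reads. A group is called at the floor here where no library exceeded 3 counts, and folds against such a group are given as lower bounds against the CPM of 3 counts per library. HAS2 itself was read at similar levels in both genotypes at every day, with 657 ± 192 CPM (SD, n = 6) in WT and 582 ± 174 CPM (n = 6) in HAS2-KO at day 2.5. The labels do not say which part of HAS2 was edited, and a 3′ tag outside it checks nothing. At day 1.5, 3 libraries with neighbouring library numbers (2 WT and 1 HAS2-KO, called block A) stood apart from the other 8 in 32.9% of 15830 genes with a mean over 1 CPM. Blocks B and C hold the remaining libraries of the genotype arm.

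NODAL transcripts were found at day 1.5 and were close to absent from day 2.5 on. At day 1.5, NODAL stood at 15.7, 24.1, 29.8, 8.20 and 22.7 CPM in the 5 WT libraries and between 13.1 and 42.6 CPM in the 6 HAS2-KO libraries. The ranges overlapped in part, with means of 20.1 ± 8.33 CPM (SD, n = 5) and 25.8 ± 12.4 CPM (n = 6). The log2 fold change of HAS2-KO over WT was 0.34 (95% interval -0.62 to 1.31, edgeR adjusted p = 0.939). By day 2.5 the highest NODAL level was 2.20 CPM in WT and 1.91 CPM in HAS2-KO, and all 6 WT libraries at day 4.5 had 0 counts, which allows up to 0.937-1.98 CPM. In the enzyme arm no library held more than 8 counts of NODAL, which was too low for its test there. The 2 highest of these were 7.10 CPM in line WT, untreated, at day 4.5 and 6.52 CPM in line TNNI1, HAse1.5, at day 7.5.

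GDF3, a ligand related to NODAL that also signals through the co-receptors and is known from pluripotent cells, stayed near the detection limit. It had 150 counts over all 65 libraries and passed the filter on low counts in neither arm. Its highest level, 10.1 CPM from 18 counts, was in the untreated day 2.5 library of line TNNT2, where the same group's other libraries stood at 1.02 and 4.47 CPM. Summed CPM of 8 pluripotency markers went over the same days from 2202-2855 in WT at day 1.5 to 354-477 at day 4.5.

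CER1 was high at day 1.5 and nearly gone a day later. CER1 (Cerberus) binds and blocks NODAL and BMP ligands outside the cell. At day 1.5 it stood at 250.4 and 280.8 CPM in the 2 WT libraries of block A and at 3671, 2892 and 3623 CPM in the other 3. HAS2-KO gave 180.7 CPM in its single block A library and 2502 to 4251 CPM in the other 5. The spread thus lay between blocks and not between genotypes, and within each block the genotypes were close: 250.4-280.8 against 180.7 CPM in block A, 3671 against 4251 CPM in block B, and 2892-3623 against 2502-3185 CPM in block C. The fitted log2 fold change of HAS2-KO over WT was 0.32 (95% interval -0.76 to 1.41), given as a description.

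The block A libraries stood apart at day 1.5 in some other genes of the pathway, as they did in 32.9% of 15830 genes. FOXH1 was at 26.2-43.6 CPM in block A and 44.3-98.5 CPM in the other 8 libraries, whereas the mesendoderm factor EOMES was at 1756-2536 CPM against 1075-1459 CPM and the endoderm factor SOX17 at 75.5-106 CPM against 0.513-44.3 CPM. All other members and listed target genes overlapped between block A and the rest, among them NODAL, TDGF1, MIXL1 and GSC. The pluripotency sum was 2179-2271 CPM in block A and 2556-2874 CPM elsewhere, and the endoderm marker sum 92.0-134 CPM and 13.8-65.9 CPM. The part of culture stage or of the block in the CER1 level was not tested.

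**Figure D1:**
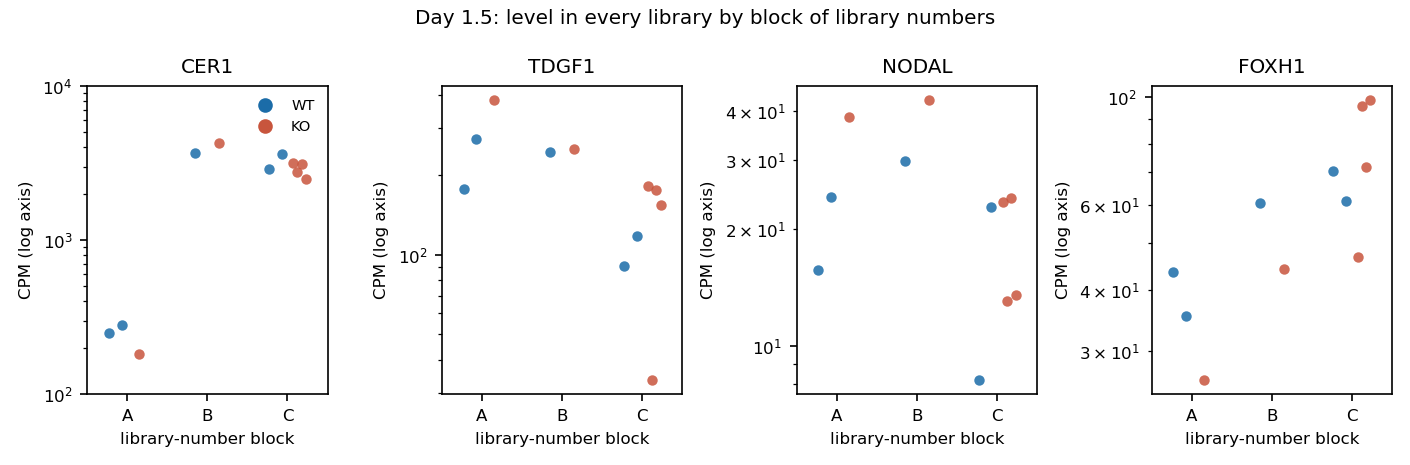
Levels at day 1.5 in every library (points; y axis, CPM on a log scale) by block of library numbers (x axis), with WT in blue and HAS2-KO in red. CER1 lies between 180.7 and 280.8 CPM in the 3 block A libraries and between 2502 and 4251 CPM in the other 8, in both genotypes, and NODAL and TDGF1 overlap between blocks.

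After day 1.5 the genotypes separated for CER1 within the genotype arm. At day 2.5 the WT libraries held 0, 0, 2.85, 1.40, 1.02 and 2.95 CPM, and HAS2-KO held 10.8, 17.8, 21.7, 21.4, 15.9 and 5.17 CPM. Every HAS2-KO library, from all 4 clones, lay above every WT library, and the order held inside each block (10.8 against 0 and 0 CPM in block A, 17.8 against 1.40 and 2.85 CPM in block B, 5.17-21.7 against 1.02-2.95 CPM in block C). The means were 15.5 ± 6.44 and 1.37 ± 1.31 CPM (SD, n = 6 each), a fitted log2 difference of 3.65 (SE 0.81). This contrast chose the gene, so no test is given. Of all 13797 genes tested, 0.993% were called in this comparison and 1.17% had HAS2-KO wholly above WT. The untreated libraries of the enzyme arm, also of WT genotype, held 4.47, 6.17 and 10.2 CPM of CER1 at day 2.5. They overlapped the HAS2-KO range and lay above every WT library of the genotype arm. Seen against day 1.5, these HAS2-KO levels were still low: the fitted log2 difference of CER1 between days 1.5 and 2.5 was -7.60 in HAS2-KO (SE 0.69) and -10.93 in WT, both as descriptions. At day 4.5 HAS2-KO held 0.611 to 5.39 CPM and WT 0 to 1.98 CPM, with the WT group at the floor and overlapping ranges. The endoderm marker sum overlapped between genotypes at day 2.5 (8.16-76.8 CPM in WT, 12.1-99.9 CPM in HAS2-KO), as did the pluripotency sum (1140-1424 and 1015-1273 CPM). Within blocks A and B, HAS2-KO lay above WT for the endoderm sum and below it for the pluripotency sum, with overlap in block C. Other marker sums moved with genotype on that day. The cardiac mesoderm sum was lower in HAS2-KO in every block (954 against 1264-1761 CPM in block A, 654 against 881-1134 CPM in B, 555-774 against 814-967 CPM in C). Its marker MESP1 went the other way and was called higher in HAS2-KO, as given below. The neural sum was higher in HAS2-KO in every block (93.9 against 51.4-70.0 CPM, 70.7 against 39.8-55.6 CPM and 57.8-85.5 against 35.9-57.1 CPM). Of its 4 markers, PAX6 was at 0 in every library of both genotypes, and SOX1 in every WT library. The cardiomyocyte sum was 830-1712 CPM in HAS2-KO and 374-2839 CPM in WT, lower in HAS2-KO within blocks B and C and higher in A. The part of these cells in the CER1 difference was not tested.

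LEFTY2, a secreted inhibitor that blocks NODAL and its co-receptors, peaked at day 2.5, when NODAL and CER1 were already low. At day 1.5 it was at 0 to 6.15 CPM in WT and 0 to 3.49 CPM in HAS2-KO. At day 2.5 the WT libraries stood at 41.5, 113.5, 29.96, 51.0, 14.3 and 18.7 CPM and the HAS2-KO libraries at 92.7, 117.8, 55.0, 70.0, 66.4 and 64.3 CPM. The ranges overlapped only through the WT library at 113.5 CPM, and within blocks HAS2-KO read 92.7 CPM against 41.5 and 113.5 in block A, 117.8 against 29.96 and 51.0 in block B, and 55.0-70.0 against 14.3-18.7 in block C. The fitted log2 difference, given as a description, was 0.73 (SE 0.42). By day 4.5 both genotypes were below 2 CPM, and at day 7.5 LEFTY2 stood at 1.94-2.79 CPM in WT and 0.664-2.88 CPM in HAS2-KO. In HAS2-KO, LEFTY2 rose by 4.87 on the log2 scale from day 1.5 to day 2.5 (SE 0.54). It was at least 42.9-fold lower at day 4.5 than at day 2.5, both as descriptions.

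LEFTY1, the neighbouring paralog, was barely read: 32 counts in total, in 16 of 65 libraries, with at most 6 in any library. Of the last 300 bases of the annotated LEFTY1 and LEFTY2 transcripts, where 3′ reads come from, 27.7% matched in an alignment with free ends. The same measure gave 7% for TDGF1 and its pseudogene copy TDGF1P3, which had 17 counts in 10 libraries. It therefore does not show how well reads of LEFTY1 and LEFTY2 were told apart. The deposited files do not tell how reads shared by copies were treated.

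TDGF1 carries NODAL to its receptor and is abundant in pluripotent cells. In the genotype arm it was high at day 1.5 and overlapped between the genotypes at day 2.5. Within that arm it lay lower in HAS2-KO without overlap at days 4.5 and 7.5. At day 1.5 it stood at 90.2 to 271.5 CPM in WT (180 ± 78.1 CPM, SD, n = 5) and 33.7 to 381.8 CPM in HAS2-KO (196 ± 115 CPM, n = 6), with a log2 fold change of 0.09 (95% interval -0.61 to 0.79) as a description. At day 2.5 the groups overlapped, at 14.4 ± 5.39 and 11.9 ± 2.47 CPM (n = 6 each). At day 4.5 the 6 WT libraries held 7.50, 7.20, 5.21, 6.26, 2.64 and 6.93 CPM, while the HAS2-KO libraries held 0.508, 0.611, 0, 0, 0 and 0 CPM, at most 1 count each. The groups did not overlap, in any block or for any of the 4 clones, and HAS2-KO was at least 3.29-fold lower. This contrast also chose the gene: 3.74% of all genes tested were called there, and 1.19% had HAS2-KO wholly below WT. The pluripotency sum overlapped on that day (354-477 CPM in WT, 302-536 CPM in HAS2-KO), though it was lower in HAS2-KO within blocks A and B. The cardiomyocyte sum overlapped over all libraries (24824-56794 and 15008-40386 CPM). Within blocks it was lower in HAS2-KO in B (40386 against 53254-56794 CPM) and C (15008-29812 against 33084-43294 CPM). In block A it was higher (35746 against 24824-26227 CPM). The neural sum was 13.3-53.4 CPM in WT and 42.0-91.0 CPM in HAS2-KO, apart in blocks A and B. Its markers PAX6 and SOX1 were at 0 in every library of both groups. Their part in the TDGF1 difference was not tested.

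At day 7.5 the WT libraries held TDGF1 at 5.65, 6.28 and 12.3 CPM and HAS2-KO libraries 1.95, 0 and 1.99 CPM, the latter from at most 3 counts each. These groups of the genotype arm again did not overlap, with HAS2-KO at least 4.27-fold lower. The untreated libraries of the enzyme arm, also of WT genotype, held 0, 0.892 and 3.83 CPM on that day. They overlapped the HAS2-KO libraries. Of 13797 genes tested, 0.348% were called and 7.72% had HAS2-KO wholly below WT, so that separated groups of 3 were common. No block A library of HAS2-KO and no block C library of WT was sampled at day 7.5. The single block with both genotypes, B, held 1.95 CPM in HAS2-KO against 6.28 and 12.3 CPM in WT. The pluripotency sum was 75.4-86.5 CPM in WT and 92.4-105 CPM in HAS2-KO, also without overlap, and its part in the TDGF1 level was not tested. Beside CER1 and TDGF1, none of the other 4 members in the fit was called at day 7.5 (763 genes had an unadjusted p under 0.05), and none at day 1.5, where 0% of all genes were called and 591 had an unadjusted p under 0.05.

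CFC1, the second co-receptor, moved opposite to TDGF1 from day 1.5 to day 2.5. Like TDGF1, it was lower at day 4.5 than at day 2.5. It had 0 counts in all 11 libraries of day 1.5, which allows up to 0.839-2.06 CPM (3 counts, covering counting error only). It was then at 179.5, 161.6, 138.4, 113.1, 127.5 and 91.4 CPM in WT at day 2.5, at least 106-fold higher. HAS2-KO at day 2.5 held 59.0, 110.8, 75.6, 76.3, 106.5 and 107.3 CPM, at least 56.7-fold above day 1.5, as a description. The ranges overlapped, and the means were 135 ± 32.1 and 89.2 ± 21.7 CPM (SD, n = 6 each). CFC1 was then low at day 4.5, at 6.87, 8.996, 1.95, 3.76, 1.98 and 3.47 CPM in WT and 13.2, 9.78, 14.8, 7.83, 9.69 and 27.2 CPM in HAS2-KO. The ranges crossed only between 7.83 CPM, the lowest HAS2-KO library, and 8.996 CPM, the highest WT library. The fitted log2 difference was 1.40 (SE 0.43), as a description. In HAS2-KO the step from day 2.5 to day 4.5 was a fall by 2.69 on the log2 scale (SE 0.38, edgeR adjusted p = 1.45e-06).

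The near-identical copy CFC1B, on the plus strand of chromosome 2 at 130521197-130528604, shares all of the last 300 transcript bases with CFC1. It had 7 counts in total, in 3 libraries, beside 3488 counts for CFC1. The CFC1 values may therefore hold reads from either copy. Adding the CFC1B counts to CFC1 changed no call.

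FOXH1 (ENSG00000160973, chromosome 8, 144473412-144476335, minus strand), the DNA-binding partner of the SMADs, overlaps KIFC2 on the other strand. It was found in every library, between 17.9 and 193.3 CPM. In WT it stood at 54.2 ± 14.2 CPM (SD, n = 5) at day 1.5, 98.9 ± 12.9 CPM (n = 6) at day 2.5, 64.8 ± 6.52 CPM (n = 6) at day 4.5 and 29.6 ± 4.05 CPM (n = 3) at day 7.5. The HAS2-KO means were 63.9 ± 29.5, 128 ± 19.0, 84.0 ± 17.5 and 41.0 ± 8.22 CPM. Its HAS2-KO steps passed the test at each interval: 0.79 (SE 0.20, edgeR adjusted p = 0.00226), -0.59 (SE 0.20, adjusted p = 0.0228) and -0.97 (SE 0.26, adjusted p = 0.0172) on the log2 scale. The middle step lost its call without the day 2.5 library cl4_R2 (adjusted p = 0.0615) or the day 4.5 libraries cl46_R1 (0.0542) or cl51_R1 (0.0559). The last lost it without the day 7.5 libraries cl14_R1 (0.144) or cl4_R2 (0.0809).

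From day 1.5 to 2.5 in HAS2-KO, FOXH1 was called higher (33.3% of all genes were called). NODAL was lower and LEFTY2 and CFC1 higher over that step, as descriptions. NODAL passed the filter on low counts only through day 1.5, LEFTY2 only through day 2.5, and CFC1 only through days after 1.5. A test over a step from or to such a day says little beyond the levels. From day 2.5 to 4.5, CFC1 and FOXH1 were called lower (30.5% of all genes), and LEFTY2 was lower as a description. From day 4.5 to 7.5 only FOXH1 was called (6.22% of all genes), and leaving out cl14_R1 of day 7.5 exchanged it for CFC1 (log2 fold change -2.55, adjusted p = 0.0260). NODAL, as a description, was at least 12.5-fold lower at day 2.5 than at day 1.5. TDGF1, also as a description, measured -4.27 on the log2 scale over that step (SE 0.40). It was at least 6.55-fold lower again, at the floor, at day 4.5. Fewer cells of a type and less RNA per cell cannot be told apart in pooled cardioids.

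**Figure D2:**
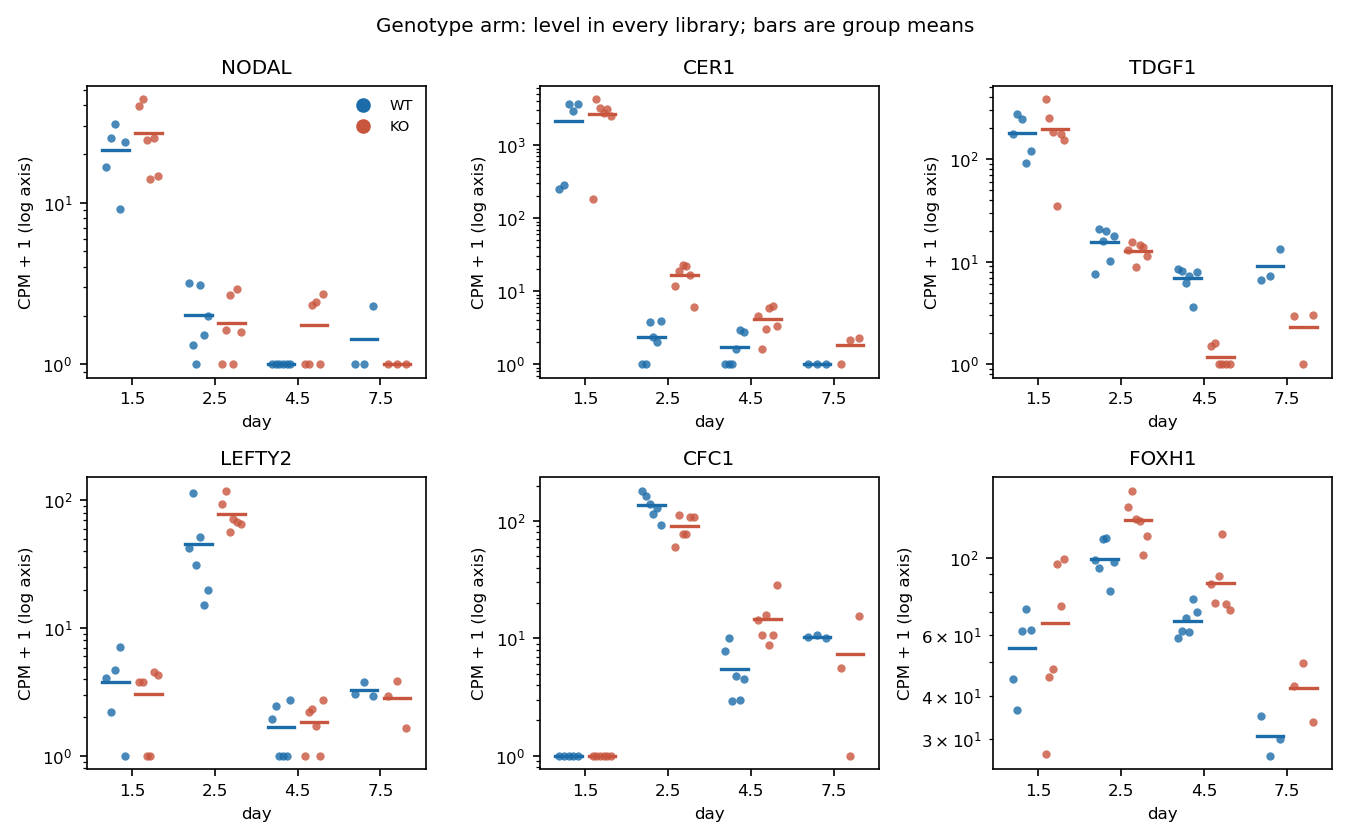
Levels in every library of the genotype arm (points; y axis, CPM + 1 on a log scale) by day (x axis), with WT in blue, HAS2-KO in red and bars at group means. NODAL, CER1 and TDGF1 are highest at day 1.5, LEFTY2, CFC1 and FOXH1 at day 2.5; CER1 is apart between genotypes at day 2.5 and TDGF1 at days 4.5 and 7.5.

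The untreated libraries of the enzyme arm gave the later steps in other libraries. From day 2.5 to 4.5, 2 of 5 members in the fit were called, against 23% of 12748 genes. In this arm LEFTY2 passed the filter on low counts chiefly through day 2.5, so its call says little beyond the levels. LEFTY2 stood at 8.68, 5.37 and 11.2 CPM in lines TNNI1, WT and TNNT2 at day 2.5 and at 0.682, 0 and 0 CPM at day 4.5, at least 3.72-fold lower (edgeR adjusted p = 0.00541). FOXH1 fell by 1.68 on the log2 scale (SE 0.33, adjusted p = 0.000593), lower in 3 of 3 lines. CFC1 went from 56.2, 18.8 and 15.1 CPM to 10.2, 1.78 and 3.48 CPM and missed the threshold narrowly (log2 fold change -2.60, SE 0.94, adjusted p = 0.0512), although also lower in 3 of 3 lines. From day 4.5 to 7.5 no member was called (6.39% of all genes, 3123 with an unadjusted p under 0.05).

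LEFTY2 had the lowest p of the members under early hyaluronidase, and missed the threshold. At day 2.5, a day into treatment, HAse1.5 libraries held 106.4, 11.2 and 51.8 CPM in lines TNNI1, WT and TNNT2, against 8.68, 5.37 and 11.2 CPM untreated. Treated exceeded untreated in 3 of 3 lines, while the treated line WT stood at the level of the highest untreated library. The log2 fold change was 2.65 (SE 0.67, 95% interval 1.26 to 4.04), with an unadjusted p of 0.000628 and an edgeR adjusted p of 0.0534, so that it missed the threshold. With the line as a replicate block it was 2.46 and passed (adjusted p = 0.0241), and DESeq2 gave 2.68 (adjusted p = 0.0235). Leaving out the treated line WT library gave 3.12 (adjusted p = 0.00427), and leaving out the treated TNNI1 library gave 1.85 (adjusted p = 0.556). In this arm HAse1.5 at day 2.5 was the only group in which every library held at least 14 LEFTY2 counts. The treated libraries thus helped LEFTY2 through the filter on low counts, so a pass says little beyond the levels. Of 12748 genes tested, 1.15% were called in this comparison, and 0 of the 5 members in the fit (1175 genes had an unadjusted p under 0.05).

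None of the other members passed the test at day 2.5, and their treated libraries spread widely between lines. CER1 stood at 53.5, 2.40 and 20.0 CPM treated against 10.2, 4.47 and 6.17 CPM untreated (log2 fold change 1.77, SE 0.71, edgeR adjusted p = 0.360), in the same order of lines as LEFTY2. TDGF1 stood at 52.2, 0 and 37.5 CPM treated against 15.3, 1.79 and 3.36 CPM untreated (2.01, SE 0.93, adjusted p = 0.511). CFC1 stood at 21.3, 0.799 and 47.5 CPM treated against 56.2, 18.8 and 15.1 CPM untreated (-0.41, SE 0.81, adjusted p = 0.986). The treated library of line WT was thus lowest for LEFTY2, CER1, TDGF1 and CFC1, and highest for FOXH1 (193.3 CPM, against 136.6 and 98.7 CPM). Its endoderm marker sum was 1.598 CPM, beside 65.9 and 22.5 CPM in the other treated libraries, and the untreated library of line WT was also the lowest of its group (9.84 CPM, beside 64.3 and 20.2 CPM). Its cardiac mesoderm sum was the highest, at 1559 CPM beside 540 and 560 CPM. The cardiomyocyte marker sum was 1265-1473 CPM in the treated libraries against 2676-3524 CPM untreated, in 7 markers of which MYH6 and ACTN2 were at 0 in every treated library. The part of such cells in the members' levels was not tested.

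At day 4.5 the secreted members were low in all enzyme groups, while CFC1 read higher with treatment without passing the test. Untreated libraries held 10.2, 1.78 and 3.48 CPM of CFC1 in lines TNNI1, WT and TNNT2, HAse1.5 libraries 32.3, 42.3 and 7.57 CPM, and HAse2.5 libraries 15.1, 10.9 and 8.98 CPM. Both treated groups exceeded untreated in 3 of 3 lines, and neither difference passed the test (log2 fold changes 2.24, SE 0.95, edgeR adjusted p = 0.271, and 1.07, SE 1.00, adjusted p = 0.977). Between the treated groups the log2 difference was 1.16 (95% interval -0.64 to 2.97, adjusted p = 0.806). CER1 ran the other way for HAse1.5, at 0, 0 and 0.582 CPM against 1.36, 3.55 and 2.78 CPM untreated, at least 1.24-fold lower (adjusted p = 0.253), and at least 1.86-fold lower than HAse2.5, at 4.31, 4.68 and 2.56 CPM (adjusted p = 0.236). These groups did not overlap, as in 8.87% and 7.26% of all genes. TDGF1, near the floor in HAS2-KO on this day, was at 8.69, 5.19 and 3.49 CPM in HAse1.5 and 7.51, 4.44 and 2.09 CPM untreated (log2 fold change 0.21, 95% interval -1.99 to 2.41, adjusted p = 0.973). No member was called against untreated for HAse1.5 (3.48% of all genes, 1764 unadjusted) or HAse2.5 (0.22%, 895 unadjusted), nor between the treatments (0.361%, 1230 unadjusted). The cardiomyocyte sum was 4990-18095 CPM in HAse1.5 and 22809-45227 CPM untreated, lower in 3 of 3 lines. The cardiac mesoderm sum was 1151, 970 and 1336 CPM in HAse1.5 against 565, 692 and 720 CPM untreated, and the endoderm sum 60.8, 16.4 and 46.6 CPM against 183, 62.2 and 49.4 CPM. The part of such cells in the CFC1 and CER1 levels was not tested.

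At day 7.5, CFC1 and LEFTY2 were higher in both treated groups than in the untreated one, in 3 of 3 lines each. CFC1 stood at 0, 2.55 and 0 CPM untreated, at 18.7, 19.4 and 2.09 CPM with HAse1.5 (log2 fold change 3.55, SE 1.31, edgeR adjusted p = 0.163) and at 4.15, 13.4 and 6.55 CPM with HAse2.5 (2.89, SE 1.37, adjusted p = 0.367). LEFTY2 stood at 0.892, 0.638 and 0 CPM untreated, at most 1 count each, at 11.4, 2.88 and 3.49 CPM with HAse1.5 and at 5.54, 3.36 and 5.24 CPM with HAse2.5. That was at least 2.61-fold (adjusted p = 0.148) and at least 2.07-fold higher (adjusted p = 0.282), without overlap in either case. Separated groups were common here too: 10.8% of genes had HAse1.5 wholly above untreated, and 9.55% had HAse2.5 so. No member was called against untreated for HAse1.5 (3.33% of all genes, 2136 unadjusted) or HAse2.5 (0.659%, 1717 unadjusted), nor between the treatments (0.00784%, 719 unadjusted), and both comparisons share the untreated libraries. The cardiomyocyte sum, 59583-69246 CPM untreated, was 29300-32254 CPM with early and 36335-60316 CPM with later treatment. The endoderm sum was 52.5-85.04 and 52.3-85.8 CPM in these groups against 86.8-227 CPM untreated, lower in 3 of 3 lines in each. Their part in the CFC1 and LEFTY2 levels was not tested.

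**Figure D3:**
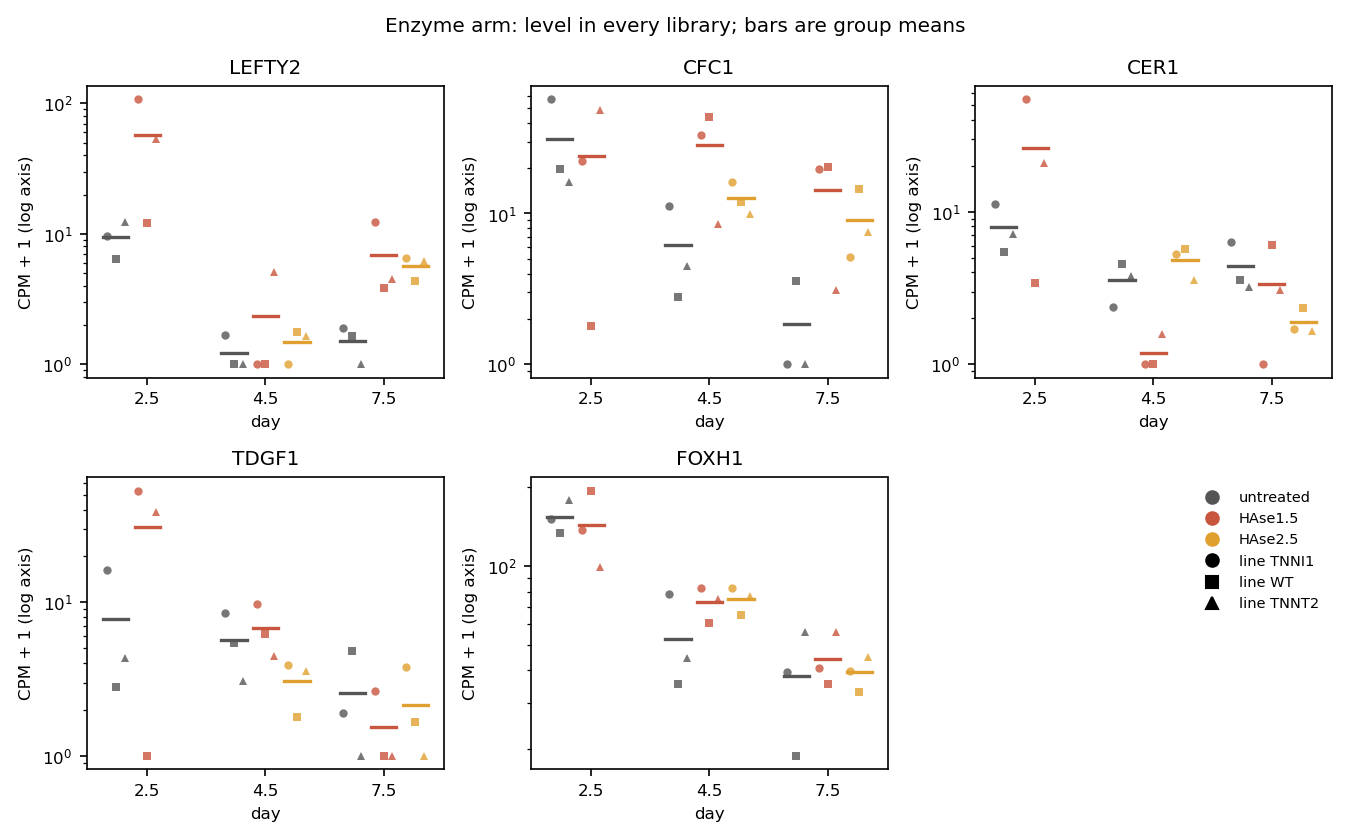
Levels in every library of the enzyme arm (points; y axis, CPM + 1 on a log scale) by day (x axis), coloured by treatment and shaped by line, with bars at group means. LEFTY2 at day 2.5 lies at 11.2 to 106.4 CPM in HAse1.5 and 5.37 to 11.2 CPM untreated, and CFC1 lies higher with treatment in each line at days 4.5 and 7.5.

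**Figure D4:**
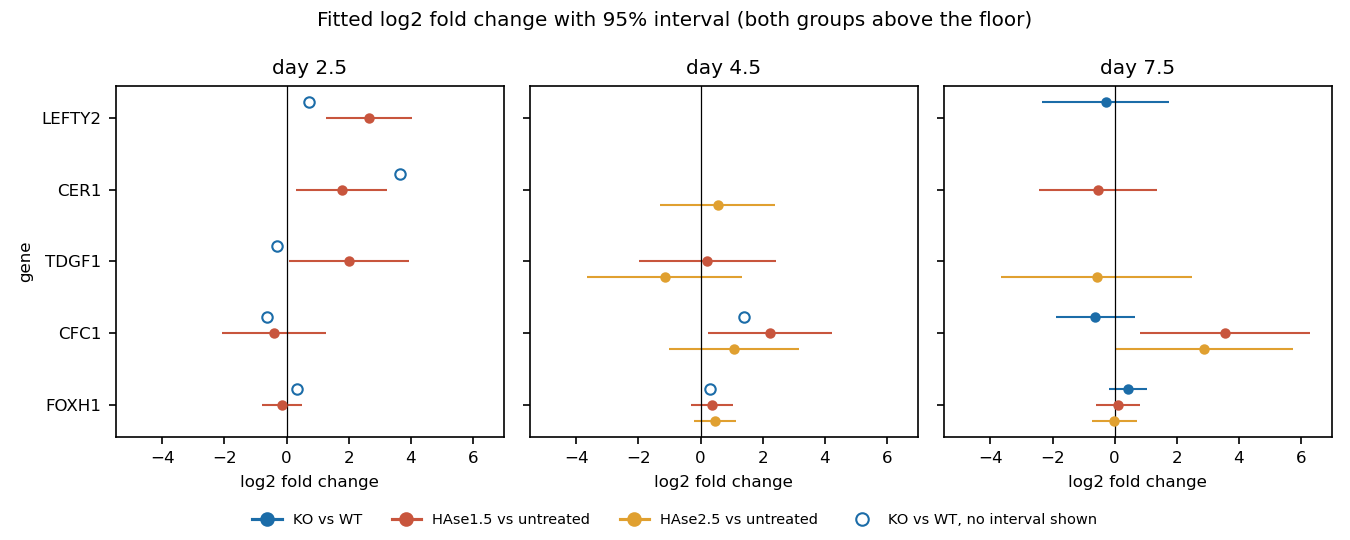
Fitted log2 fold changes of members (x axis) at each day, with 95% intervals not adjusted for the number of genes; open symbols are HAS2-KO over WT at days 2.5 and 4.5 and carry no interval. The LEFTY2 interval for HAse1.5 at day 2.5 runs from 1.26 to 4.04, and FOXH1 estimates run from -0.14 to 0.46.

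Other genes of the pathway, from lists of 36 ligands, convertases, receptors, transducers, inhibitors and targets, were counted from the same fits. In HAS2-KO against WT, 3 of 31 measured genes changed at day 2.5 (0.993% of all genes were called): the target genes MIXL1 (18.9 against 3.37 CPM on average, log2 fold change 2.42, SE 0.36, edgeR adjusted p = 0.000117) and MESP1, a cardiac mesoderm factor (18.0 against 2.94 CPM, adjusted p = 0.00225), rose, and the decoy receptor BAMBI fell by 1.31 on the log2 scale (adjusted p = 0.000104). At day 4.5, with 3.74% of all genes called, 5 of 31 rose and none fell: the targets LHX1 and HHEX, the activin inhibitor FST, the activin subunit INHBA and the ligand GDF11. At day 7.5, with 0.348% of all genes called, only LHX1 rose (104 against 30.5 CPM, log2 fold change 1.74, SE 0.33, adjusted p = 0.00349). None of the 31 was called at day 1.5.

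In the enzyme arm LHX1 also rose with HAse1.5. It averaged 905 against 94.4 CPM untreated at day 4.5 (log2 fold change 3.16, SE 0.67, edgeR adjusted p = 0.0111) and 327 against 17.9 CPM at day 7.5 (4.11, SE 0.75, adjusted p = 0.00488). At day 4.5 the signal transducer SMAD2 fell by 0.72 on the log2 scale (SE 0.20, adjusted p = 0.0443). LHX1 and SMAD2 were among 3 of 29 measured genes called at day 4.5 (3.48% of all genes), and LHX1 was the 1 of 29 at day 7.5 (3.33%). At day 2.5 none of the 29 was called, and none was called for HAse2.5 on either day or between the treatments. The 8 measured targets had a median log2 fold change of 1.17 in HAse1.5 at day 2.5, beside 0 over all genes. Summed CPM of the 10 listed targets was 2381-4198 in HAse1.5 and 874-1320 untreated on that day, without overlap and not tested. MIXL1 and MESP1 averaged 24.4 and 34.8 CPM in HAse1.5 at day 2.5 against 7.69 and 3.34 CPM untreated, without passing the test; they are named because of their call in HAS2-KO.

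With time, the measured targets moved mostly downward after day 1.5. In HAS2-KO, 8 of 10 targets fell and 1 rose from day 1.5 to day 2.5, with MIXL1 at -6.75 and GSC at -6.33 on the log2 scale (edgeR adjusted p = 8.18e-18 and 5.5e-12), and 7 of 10 measured inhibitors fell, 1 rose, where 33.3% of all genes were called. The same step in WT had 9 targets lower and 1 higher (30.1% of all genes called). From day 2.5 to day 4.5, where 34.5% of all genes were called in WT, FST rose by 5.11 in HAS2-KO (adjusted p = 5.54e-14) and by 3.61 in WT (adjusted p = 7.27e-11), and INHBA rose by 5.20 in HAS2-KO. The untreated libraries had 7 of 29 genes higher and 3 lower in that step (23% of all genes called), with FST higher and EOMES lower. The medians of all genes lay within 0.05 of 0 in each of these comparisons.

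Across the 16 group means, CER1 and TDGF1 varied alike (Pearson r = 0.83), as did LEFTY2 and CFC1 (0.66), whereas CER1 and CFC1 ran opposite (-0.53). Of 12566 genes measured in both arms, the closest to CER1 were DDX21 (0.970) and GEMIN5 (0.966), and to TDGF1 MRPS34 (0.956) and POLR3K (0.948). LEFTY2 was closest to PPP1R1B (0.927) and MUC4 (0.895), CFC1 to LGR4 (0.953) and PPM1L (0.928), and FOXH1 to PCDH10-DT (0.951) and KLF1 (0.932). These are descriptions over 16 means of log2 CPM, dominated by the day, from libraries that share lines and depth.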

How the data were processed

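Library preparation was QuantSeq 3′ FWD, in which reads come from transcript ends, on 65 samples, per the labels' protocols. The authors deposited raw counts per gene, made with featureCounts (Subread 1.6.2) on GRCh38, per the submitters' processing notes; aligner, annotation, strand setting and treatment of multi-mapping reads are not given in the sources used here. Another 4 columns of the table match no listed sample and were not used. All 58735 IDs were found in GENCODE 29.

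CPM is a gene's count scaled to its library total. Each arm was fitted with edgeR 4.0.16 (R 4.3.3; quasi-likelihood, TMM, filterByExpr with a minimum count of 10, 1 mean per group), with Benjamini-Hochberg adjustment over all genes and a threshold of 0.05. The filter left 12748 genes and 5 members in the enzyme arm, and 13797 and 6 in the genotype arm. LEFTY1 and GDF3 passed in neither arm. The code was tested on simulated data. DESeq2 1.42.0, other size factors, no filter, a replicate block and leaving out each library were alternatives. Replicate libraries differed by more than sampling noise (chi-square per degree of freedom 2.10 to 81.5), and the labels state at least 3 biological replicates per condition.

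All 8 members are named, with pathway genes limited to at most 3 per comparison by adjusted p (others were chosen after their values were seen), and the 2 genes most like each member. Members and lists were chosen with earlier results of these data known. The p-values of members are therefore not independent of that choice. In the enzyme arm replicates share a line (15 of 21 same-line pairs of deviations correlated over 0.1, median 0.211), which pairs the samples. Cell markers were summed CPM over fixed lists. The result of 1 gene counted in the pathway lists is not reported here.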

Additional observations from a re-analysis of the deposited data

Results flagged for a closer look

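LEFTY2 in WT at day 2.5 was flagged because the library WT_TU_R1 read 113.5 CPM and stood far above the other 5, which lay between 14.3 and 51.0 CPM. CFC1 in HAS2-KO at day 4.5 was flagged because clone cl51 read 27.2 CPM, while the other 5 libraries lay between 7.83 and 14.8 CPM. These were 2 of 35 gene and group pairs checked, where chance alone flags about 1 in 20.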

How the results depend on the processing

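No tested member changed direction among calls. The count of members called for HAse1.5 over untreated at day 2.5 went from 0 to 1, LEFTY2, with DESeq2, with no filter on low counts, with the replicate block, and among the leave-one-out fits (0 to 1). At day 7.5 it went to 1, LEFTY2, with no filter (adjusted p = 0.0157). The HAS2-KO step from day 4.5 to 7.5 ranged from 0 to 1 over libraries left out. The step from day 2.5 to 4.5 ranged from 4 to 5, and the step from day 1.5 to 2.5 stayed at 6. These HAS2-KO counts include CER1, TDGF1 and the other members whose steps are given as descriptions, so their steadiness says little about those members. In the main fits, 6.22%, 30.5% and 33.3% of all genes were called over these steps, in the order given. Untreated day 2.5 to 4.5 stayed at 2 (23% of all genes in the main fit). The other 9 comparisons stayed at 0 in every leave-one-out fit. FOXH1 lost its call from day 2.5 to 4.5 with no filter (adjusted p = 0.0688), and CFC1 gained one in the untreated step with only the libraries compared (0.0125). The cause was not tested. The paired fit, with a replicate block, changed no other call. In the genotype arm the block is the library-number block (26 of 37 pairs of deviations correlated over 0.1). Leaving out block A, chosen after seeing the data, changed no count of members called. Counts of 3 or fewer per library limit NODAL, LEFTY1, GDF3 and TDGF1 at late days, and CER1 and LEFTY2 in several groups of days 4.5 and 7.5.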
